A study of Homo sapiens with 40 samples.

Results

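The genes described here are 6 cadherins (CDH1, CDH2, CDH3, CDH11, CDH13 and CDH19), the cadherin-bound catenins CTNNB1 and CTNND1, and the intermediate filament gene VIM. They were chosen by symbol, 9 genes of the 60708 counted, and followed across 24 RNA-seq libraries. All 9 had counts, from 537 for CDH13 to 447610 for CTNNB1 over all libraries. MI-spheres are 3D cultures of MCF-10A, a normal-like mammary epithelial cell line, and MII-spheres are 3D cultures of its HRAS-transformed derivative MCF-10AneoT. Both were left unstimulated (Ctrl) or received 2.5 ng/ml TGFβ for 16 h. MDA-MB-231 cells, a triple-negative breast cancer line grown in 2D without added TGFβ per the labels, were parental (WT) or labelled SLUG KO, after CRISPR/Cas9 cutting in exon 1 of SNAI2 and expansion of single-cell colonies. The number of clones behind the SLUG KO libraries is not given in the sources used here. Other MDA-MB-231 cells were transfected with a control siRNA (Csi) or with siRNAs against SMAD2, SMAD3 and SMAD4 (siSMAD2/3/4). Each of the 8 groups has 3 libraries. Nothing in the labels says that the 3 came from separate cultures, so p-values measure the spread between these libraries, which may be technical. In bulk RNA, fewer cells of a type and less RNA per cell cannot be told apart.

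Classical cadherins hold neighbouring cells together through their extracellular domains, and their cytoplasmic tails bind p120-catenin (CTNND1) and β-catenin (CTNNB1), which links them to α-catenin and actin. β-catenin that is not bound to cadherins can also act in the nucleus as the effector of WNT signalling. In epithelial-mesenchymal transition (EMT), which TGFβ can induce in mammary epithelial cells, E-cadherin (CDH1) is classically replaced by N-cadherin (CDH2) and keratin filaments are joined by vimentin, with SNAI and ZEB repressors acting on CDH1. P-cadherin (CDH3) marks basal and myoepithelial mammary cells, CDH11 is known from mesenchymal and osteoblast lineages, CDH13 lacks a cytoplasmic tail and is anchored by a lipid, and CDH19 is known from glial precursors of the neural crest.

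Between 14124688 and 38406952 fragments per library were counted on genes. Replicates correlated with r of at least 0.984 across genes in 7 of the 8 groups, while WT replicate 2 correlated with r of 0.957 and 0.952 with the other WT libraries. The 18 sphere, WT and SLUG KO libraries carry another batch label than the 6 siRNA libraries, so differences in level between WT and Csi cannot be told apart from batch and transfection. HRAS stood at 220.2 CPM (counts scaled to the size of the library) in MII Ctrl and 40.7 in MI Ctrl. SMAD2 fell from 90.5 to 23.9 CPM, SMAD3 from 266 to 165 and SMAD4 from 55.3 to 16.8 on transfection of their siRNAs. SNAI2 mRNA was not lower in the libraries labelled SLUG KO, at 61.8 ± 3.59 CPM against 28.3 ± 6.62 in WT (SD, n = 3, adjusted p = 0.0399). Cutting exon 1 need not remove the transcript, so this level does not check the loss of the protein. The paper states that it checked its knockout clones by ddPCR and immunoblotting. The 10 listed mammary basal epithelial markers summed to between 1115 and 5586 CPM in spheres. In WT these 10 summed to 708 to 960 CPM, and 6 of them had a mean of at least 1 CPM. KRT5 and DSG3, 2 of them, were at 0 counts in WT. The 10 markers listed for the mesenchymal MDA-MB-231 line summed to 4944 to 5629 CPM in WT, with TWIST2 at 0 counts.

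In GRCh38, 4 of the 9 genes lie on chromosome 16. CDH3 (ENSG00000062038, chr16:68636189-68727468) and CDH1 (ENSG00000039068, chr16:68737292-68835537) are direct neighbours on the plus strand, 9823 bases apart. CDH11 (ENSG00000140937, chr16:64943753-65126112, minus strand) and CDH13 (ENSG00000140945, chr16:82626965-83800640, plus strand) are farther off. CDH2 (ENSG00000170558, chr18:27932879-28177946) and CDH19 (ENSG00000071991, chr18:66501083-66604138) lie on the minus strand of chromosome 18. VIM (ENSG00000026025) is at chr10:17228241-17237593, CTNNB1 (ENSG00000168036) at chr3:41194741-41260096 and CTNND1 (ENSG00000198561) at chr11:57753243-57819546, all on the plus strand. Counting ignored strand, and reads that fit more than 1 gene were not counted. Other genes share 39.1% of the exon bases of CTNND1, 24.3% of those of VIM (among them the antisense VIM-AS1) and 21.4% of those of CDH13. The share is at most 8.40% for the other 6 genes. Reads in those bases are missing from the counts of CTNND1, VIM and CDH13, so their levels are uncertain.

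Promoter sequence was at hand for 4 of the genes, and 3 are shown, because CDH2 and VIM responded to TGFβ in both lines and CDH19 differed most between the lines. Each run is the 250 bases before the start of the gene in RefSeq (GRCh38.p14), read along the gene's strand, with the SMAD-binding letters CAGAC or their reverse complement GTCTG in capitals. The windows are chr18:28177131-28177380 (minus) for CDH2, chr10:17227991-17228240 (plus) for VIM and chr18:66604091-66604340 (minus) for CDH19. RefSeq starts can differ from those of the counted genes. By the positions given above, the CDH2 window lies inside the counted gene, and the CDH19 window overlaps the start of its counted gene.
CDH2: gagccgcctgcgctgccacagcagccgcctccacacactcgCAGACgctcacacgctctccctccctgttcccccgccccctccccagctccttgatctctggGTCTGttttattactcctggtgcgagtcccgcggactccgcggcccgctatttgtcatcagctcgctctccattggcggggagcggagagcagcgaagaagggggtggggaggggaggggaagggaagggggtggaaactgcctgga
VIM: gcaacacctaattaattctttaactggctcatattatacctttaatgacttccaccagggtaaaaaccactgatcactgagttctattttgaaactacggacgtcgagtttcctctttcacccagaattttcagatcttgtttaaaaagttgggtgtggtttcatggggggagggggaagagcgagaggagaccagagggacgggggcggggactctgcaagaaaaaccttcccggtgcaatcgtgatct
CDH19: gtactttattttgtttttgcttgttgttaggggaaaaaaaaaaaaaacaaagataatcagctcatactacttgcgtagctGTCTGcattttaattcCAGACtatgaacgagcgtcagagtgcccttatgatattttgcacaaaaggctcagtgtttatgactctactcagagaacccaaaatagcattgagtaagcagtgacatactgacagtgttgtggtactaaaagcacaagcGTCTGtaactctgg
The CDH2 window holds 2 matches, the CDH19 window 3 and the VIM window 0. A further CDH2 start has 1 match in its window and CTNNB1 has 2. The SNAI- and ZEB-binding letters CAGGTG, or CACCTG, were in none of these 5 windows. Among 35116 promoters of the same length, 38.003% hold CAGAC or GTCTG and 17.5% hold CAGGTG or CACCTG, and a match is a description of the letters only.

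Sphere and MDA-MB-231 cells differed in which cadherins they expressed, and the levels in each library are plotted on a common CPM scale over all 24 libraries. CDH1 stood at 527, 532 and 521 CPM in MI Ctrl, at 545, 533 and 557 in MI TGFβ, at 588, 555 and 554 in MII Ctrl and at 726, 725 and 696 in MII TGFβ. In WT it was at 1.54, 0.746 and 1.41 CPM. All sphere libraries were therefore far above all MDA-MB-231 libraries, and MII TGFβ was highest. The Csi (17.8 ± 0.927) and siSMAD2/3/4 (14.4 ± 0.449) libraries lay between, and SLUG KO and WT overlapped.

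**Figure D1:**
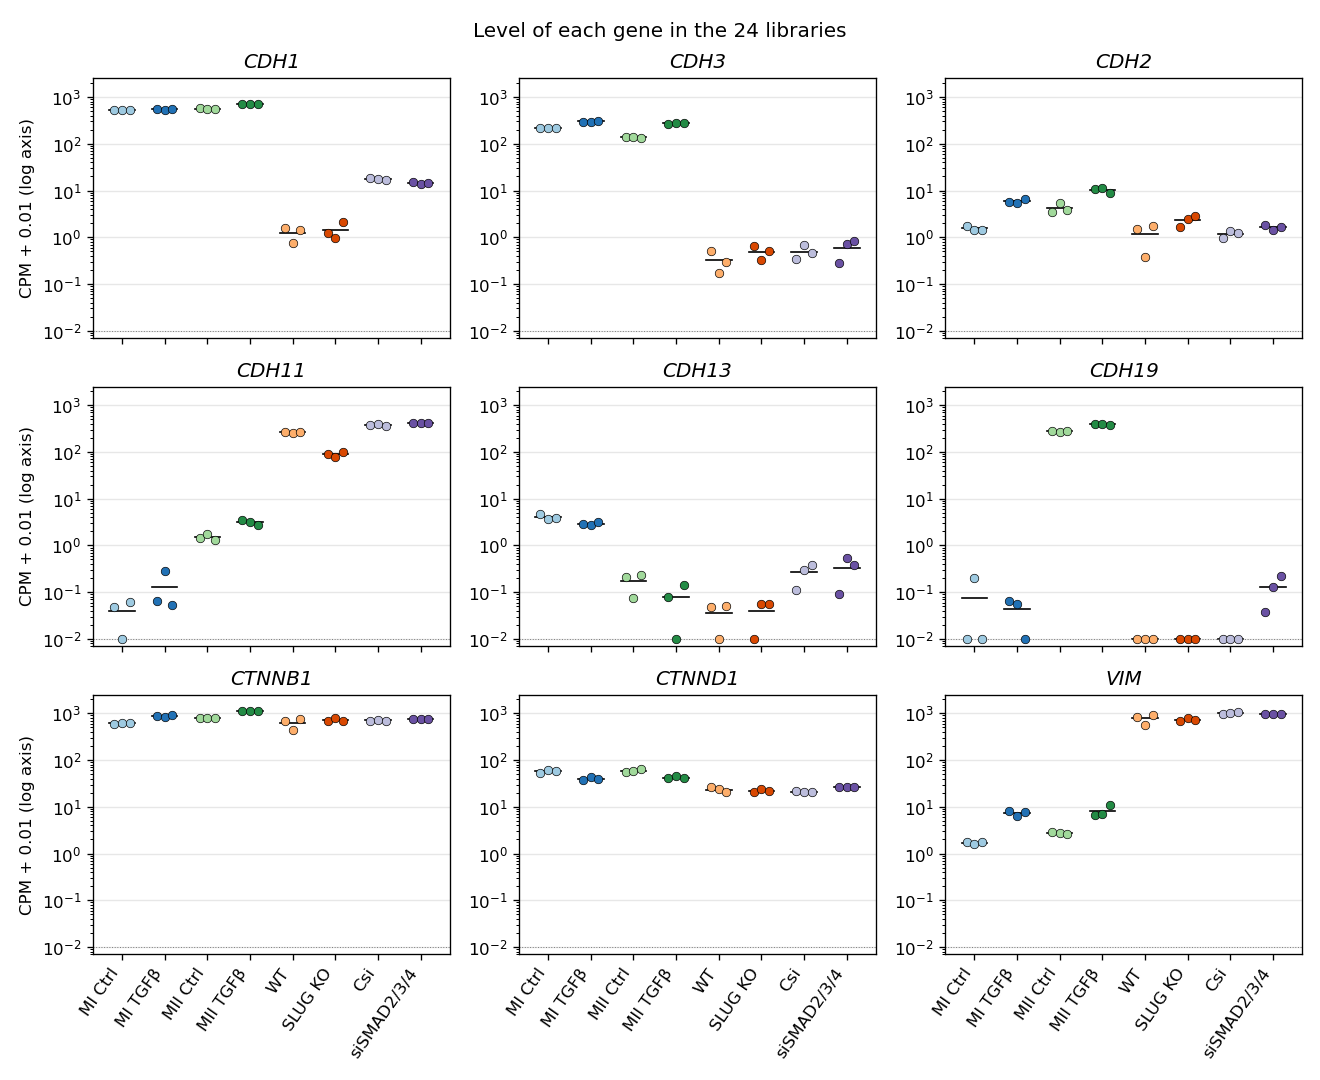
Level of each gene in CPM plus 0.01 on a log axis, with points for the 3 libraries of each group, a line at the group mean and a dotted line at 0 counts. CDH1 and CDH3 are high in the sphere groups, VIM and CDH11 in MDA-MB-231 cells and CDH19 in MII-spheres, while CTNNB1 stays between 450.0 and 1122 CPM in every library.

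CDH3 was highest in MI TGFβ at 297, 289 and 313 CPM, followed by MII TGFβ at 271, 273 and 271 and MI Ctrl at 219, 214 and 221. MII Ctrl was lowest of the spheres at 140.0, 138 and 135 CPM, and none of these 4 groups overlapped. In the 4 MDA-MB-231 groups CDH3 means ran from 0.312 to 0.593 CPM with overlapping libraries. CDH2, by contrast, was low everywhere. Its mean was 10.3 ± 1.25 CPM in MII TGFβ, 5.88 ± 0.483 in MI TGFβ, 4.20 ± 0.977 in MII Ctrl and 1.54 ± 0.204 in MI Ctrl. WT stood at 1.46, 0.373 and 1.69 CPM, and these libraries overlapped with those of MI Ctrl.

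CDH11 was the highest of the 6 cadherins in the MDA-MB-231 libraries. It stood at 260.2, 249 and 272 CPM in WT, 89.0, 78.3 and 98.96 in SLUG KO, 376, 387 and 367 in Csi and 422, 407 and 410.5 in siSMAD2/3/4, without overlap. In spheres it was at 3.14 ± 0.335 CPM in MII TGFβ and 1.48 ± 0.215 in MII Ctrl, and had 2 counts in all of MI Ctrl. CDH13 was found at 4.70, 3.75 and 3.84 CPM in MI Ctrl and 2.80, 2.69 and 3.19 in MI TGFβ, and its mean was at most 0.326 CPM in the other 6 groups.

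CDH19 was expressed in MII-spheres, at 277, 263 and 282 CPM without and 393, 393 and 372 CPM with TGFβ. MI Ctrl had 0, 4 and 0 counts and MI TGFβ had 1, 1 and 0. The 9 WT, SLUG KO and Csi libraries had 0 counts, and siSMAD2/3/4 had 1, 4 and 7. Counted fragments of CDH19 came to 17135 in MII Ctrl.

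CTNNB1 was abundant in all groups, from 609 ± 9.28 CPM in MI Ctrl to 1112 ± 12.5 in MII TGFβ. The 4 MDA-MB-231 groups had means of 636 to 764 CPM, and siSMAD2/3/4, SLUG KO, Csi, WT and MI Ctrl, in this order, each overlapped with the next. CTNND1 was highest in MII Ctrl (59.5 ± 3.36 CPM) and MI Ctrl (57.1 ± 3.50), which overlapped, followed by MII TGFβ (42.2 ± 2.90) and MI TGFβ (39.6 ± 3.44), which overlapped too. It was at 20.9 to 26.5 CPM in the MDA-MB-231 groups. VIM stood at 843, 568 and 941 CPM in WT, with replicate 2 lowest, and its means in the other MDA-MB-231 groups were 732 to 1007. In spheres it was at 1.77, 1.59 and 1.76 CPM in MI Ctrl, 8.12, 6.49 and 7.74 in MI TGFβ, 2.84, 2.78 and 2.61 in MII Ctrl and 6.56, 6.86 and 10.7 in MII TGFβ.

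Dividing CPM by exon length allows genes to be compared with each other. On this scale CDH1 made up 71.4% ± 0.549 of the summed level of the 6 cadherins in MI Ctrl and CDH3 made up 28.1% ± 0.543 (SD, n = 3). After TGFβ the shares in MI-spheres were 65.2% and 34.1%. In MII Ctrl CDH1 held 60.0% ± 0.715, CDH3 13.9% ± 0.282 and CDH19 25.7% ± 0.836. The corresponding shares in MII TGFβ were 54.0%, 19.5% and 25.8%, so the share of CDH19 overlapped with that in MII Ctrl while that of CDH3 was larger in each stimulated library. CDH2 held 0.552% in MII TGFβ and 0.498% in MI TGFβ. CDH11 held 98.1% in WT, 92.1% in SLUG KO, 90.0% in Csi and 92.0% in siSMAD2/3/4. The summed level was 121.3 ± 0.428 CPM per kb in MI Ctrl, 218 ± 4.71 in MII TGFβ, 20.0 ± 1.03 in WT and 7.27 ± 0.912 in SLUG KO.

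Ranked by level per kb among protein-coding genes with a count in the group, CDH1 was number 329 from the top in MI Ctrl and 280 in MII Ctrl, and number 12471 in WT. CDH19 was number 772 in MII Ctrl. VIM ranked 141 in WT and 11806 in MI Ctrl, and CTNNB1 ranked between 343 and 608 in every group.

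Stimulation with TGFβ asks whether the junction genes follow the classical switch in spheres. In MI-spheres CDH2 rose 3.57-fold, VIM 4.09-fold, CTNNB1 1.37-fold and CDH3 1.30-fold, whereas CTNND1 fell 1.52-fold and CDH13 1.51-fold. CDH1, the gene lost in the classical switch, did not pass the test there (log2 fold-change -0.03 ± 0.05 SE, adjusted p = 0.578). Of the 7 genes tested, 4 rose and 2 fell, beside 56.0% of all genes called in either direction, 28.7% up and 27.4% down, so a call is common in this comparison. CDH11 and CDH19 were not tested, having at most 6 and 4 counts in a library. The log2 fold-changes were 1.83 ± 0.18 for CDH2 (adjusted p = 2.67e-08), 2.03 ± 0.17 for VIM (1.63e-09) and 0.38 ± 0.05 for CDH3 (1.38e-06). They were 0.45 ± 0.05 for CTNNB1 (1.22e-07), -0.60 ± 0.07 for CTNND1 (6.00e-07) and -0.59 ± 0.17 for CDH13 (0.00685). The CDH13 call was lost in DESeq2 (adjusted p = 0.0873), in a joint fit of 18 libraries (0.222) and without MI Ctrl replicate 1 (0.0634).

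In MII-spheres 7 genes rose and 1 fell among 8 tested, beside 57.6% of all genes called (29.9% up, 27.6% down). VIM rose 2.85-fold, CDH2 2.32-fold, CDH11 2.03-fold, CDH3 1.92-fold, CDH19 1.38-fold, CTNNB1 1.35-fold and CDH1 1.24-fold, and CTNND1 fell 1.44-fold. CDH13, with at most 4 counts in a library, was not tested. The log2 fold-change was 0.30 ± 0.03 for CDH1 (adjusted p = 5.88e-11), 0.94 ± 0.04 for CDH3 (1.17e-27) and 1.21 ± 0.15 for CDH2 (4.63e-10). For CDH11 it was 1.02 ± 0.24 (0.000311) and for CDH19 0.46 ± 0.04 (8.32e-16). VIM changed by 1.51 ± 0.18 (2.16e-10), CTNNB1 by 0.43 ± 0.03 (1.13e-16) and CTNND1 by -0.53 ± 0.06 (1.46e-10). Despite these folds, VIM in stimulated spheres (7.45 CPM in MI and 8.03 in MII) stayed far below its WT level of 784 CPM. The 10 basal epithelial markers, which do not include CDH3, summed to 2433 to 2503 CPM in MI Ctrl and 5053 to 5586 in MI TGFβ, and to 1115 to 1165 in MII Ctrl and 2747 to 2894 in MII TGFβ. None of them was at 0 counts, and their part in the CDH3 values was not tested. The 10 markers of the MDA-MB-231 line, which include VIM, summed to 317 to 330 CPM in MI Ctrl and 648 to 684 in MI TGFβ, and to 857 to 901 and 1244 to 1284 in MII-spheres. These sums do not hold for each marker. With TGFβ 7 rose and 1 fell among 10 tested in MI-spheres, and 5 rose and 1 fell among 9 in MII-spheres. Between MII Ctrl and MI Ctrl 4 were higher and 3 lower among 9, where 31.7% of all genes were higher and 32.5% lower. In a joint fit of 18 libraries that included WT, CDH1 (0.33, adjusted p = 0.201) and CDH19 (0.48, 0.114) had similar log2 fold-changes but did not pass.

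**Figure D2:**
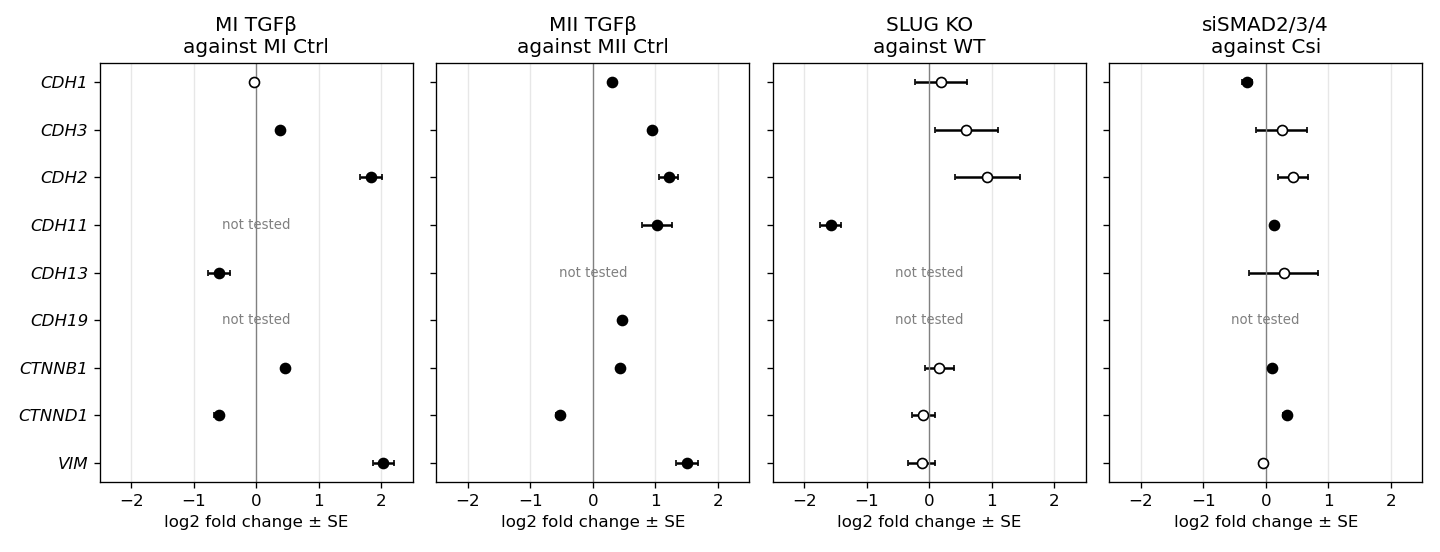
Log2 fold-changes with their standard errors for the 9 genes in 4 comparisons of 3 against 3 libraries, filled where the adjusted p was under 0.05 and open where it was not. TGFβ moves CDH3, CDH2, CTNNB1 and VIM up and CTNND1 down in both lines, CDH11 alone passes the test in SLUG KO, and the siSMAD2/3/4 changes are at most 0.43 in size.

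The small CDH1 value in MI-spheres depended on scaling. With TMM over its own 6 libraries the log2 fold-change was -0.03, in DESeq2 0.01 (adjusted p = 0.946), in the joint fit of 18 libraries 0.04 (0.878) and with library totals in place of TMM -0.17, where it passed (0.00219). The common CPM scale over 24 libraries likewise places MI TGFβ slightly above MI Ctrl (545 ± 11.8 against 527 ± 5.51), without overlap. Using library totals shifted the median of all genes from -0.02 to -0.15 in both lines, and 34.1% instead of 51.2% of the calls in MI and 33.3% instead of 52.0% in MII were then upward. Relative to that median CDH1 stayed near 0 in MI-spheres. No called direction of the other 8 genes changed under TMM, library totals, DESeq2 or its size factors. CDH1 in MII-spheres was 0.17 and CDH3 0.24 (MI) and 0.81 (MII) with library totals, all still called.

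**Figure D3:**
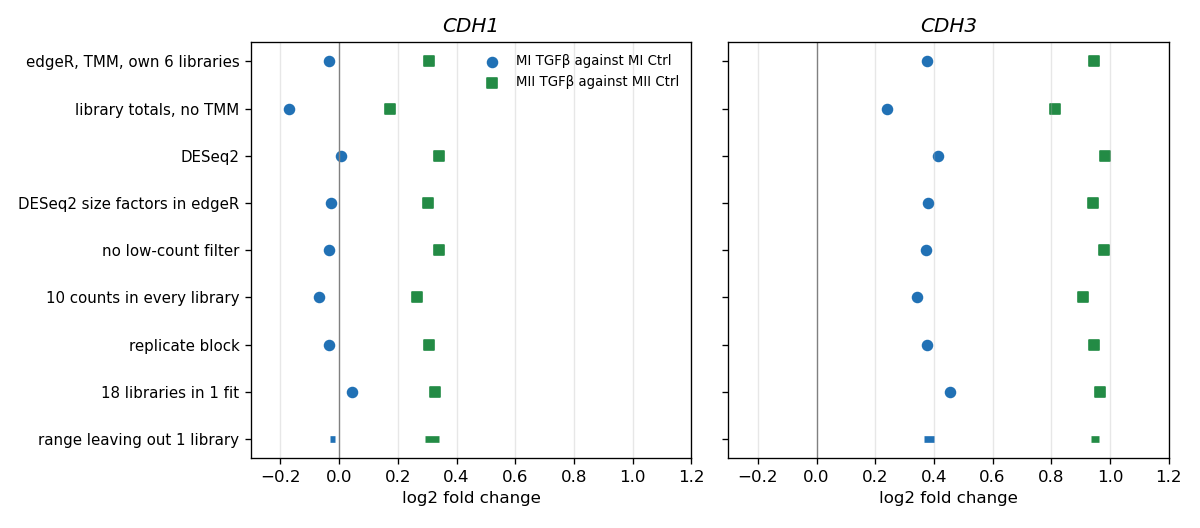
Log2 fold-change of CDH1 and CDH3 with TGFβ in MI-spheres (circles) and MII-spheres (squares) under each way of processing, with bars for the range when 1 library is left out. CDH1 in MI-spheres lies on both sides of 0, from -0.17 to 0.04, whereas CDH1 in MII-spheres and CDH3 in both lines lie above 0 throughout.

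The response of CDH1 and of CDH3 differed between the lines. The interaction of line and TGFβ was 0.35 ± 0.06 for CDH1 (adjusted p = 1.47e-05) and 0.58 ± 0.06 for CDH3 (1.19e-09), both larger in MII-spheres. These were the 2 called among 9 tested, beside 22.4% of all genes (12.6% higher, 9.75% lower). The estimate was -0.61 ± 0.24 for CDH2 (0.0711) and -0.51 ± 0.26 for VIM (0.174), which did not pass. CDH2 passed when MI Ctrl replicate 1, MI TGFβ replicate 2, MII Ctrl replicate 1 or MII TGFβ replicate 2 was left out (lowest adjusted p = 0.0395), and VIM without MII TGFβ replicate 3 (-0.81, 0.0171). For CTNNB1 (-0.01 ± 0.06) and CTNND1 (0.08 ± 0.10) no difference in response was detectable. CDH11, CDH13 and CDH19 are at or near 0 counts in 1 of the lines and give no usable interaction.

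Among the other junction genes, 9 plaque genes and nectins of 26 had a larger and 2 a smaller log2 fold-change in MII-spheres, where 12.6% of all genes were larger and 9.75% smaller. They include LMO7 (0.89) and CTNNAL1 (1.99) on the one side and NECTIN1 (-0.73) and CTNND2 (-1.80) on the other. Of 20 other cadherins, 5 were larger, such as CDH5 (2.81) and PCDH9 (1.51), and CELSR2 alone was smaller (-0.38). Of 21 repressors and activators 8 were larger, with FOXA1 (1.17) and KLF4 (1.31) first, and 2 smaller, KLF8 (-0.80) and TWIST1 (-0.62). DKK1 (0.91) was among 3 larger of 22 destruction complex and WNT genes, and MYC (-0.72) and AXIN1 (-0.30) were smaller. LMNB1 (2.05) and LMNB2 (0.59) were among 3 larger of 9 filament genes, and DST (-0.47) and BFSP1 (-1.22) were smaller.

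Ratios of 2 genes within a library do not depend on scaling. On the log2 scale per kb, CDH1 to CDH3 went from 1.35 ± 0.04 to 0.94 ± 0.03 with TGFβ in MI-spheres and from 2.11 ± 0.03 to 1.47 ± 0.03 in MII-spheres. CDH1 to CDH2 went from 8.92 ± 0.19 to 7.04 ± 0.09 and from 7.60 ± 0.35 to 6.62 ± 0.15. CTNND1 to CTNNB1 went from -3.79 ± 0.07 to -4.85 ± 0.18 and from -4.13 ± 0.08 to -5.09 ± 0.11. The groups did not overlap in any of these 6 contrasts, and each reached p = 0.1 in a two-sided exact permutation test, the smallest that 3 against 3 libraries can give. CDH1 mRNA was thus lower relative to that of CDH2 and of CDH3 in every stimulated library.

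Genes around the junction were examined as lists. Of 28 adherens junction plaque genes and nectins, 26 were tested in MI-spheres, where 5 rose and 13 fell with a median log2 fold-change of -0.24, against -0.02 for all genes, of which 28.7% rose and 27.4% fell. In MII-spheres 9 rose and 11 fell among 25 (median -0.08), where 29.9% of all genes rose and 27.6% fell. LMO7, an afadin- and α-actinin-binding protein, fell in both (-1.45 and -0.57), as did the receptor phosphatase PTPRM (-0.94 and -0.81). NECTIN1 (0.98) and NECTIN3 (1.05), adhesion receptors, rose in MI-spheres, and CTNNAL1 (2.31) and α-catenin CTNNA1 (0.22, from 1532 to 1825 CPM) rose in MII-spheres. Of 36 other members of the cadherin superfamily, 19 were tested in MI-spheres, where 3 rose and 7 fell, and 18 in MII-spheres, where 4 rose and 6 fell. The protocadherin-like FAT1 rose in both (0.47 and 0.32), FAT2 in MI-spheres (1.07), and the calsyntenin CLSTN1 in MII-spheres (0.42). CDH5, the endothelial VE-cadherin, fell from 22.2 to 2.20 CPM in MI-spheres (-3.42 ± 0.12), PCDH9 fell there too (-1.38), and CELSR2 (-0.40) and CELSR3 (-0.38) fell in MII-spheres. The 6 endothelial markers listed, CDH5 among them, summed to 31.5 to 34.9 CPM in MI Ctrl and 13.5 to 14.8 in MI TGFβ. That sum includes the fall of CDH5 itself, and of the 3 endothelial markers tested CDH5 alone was called. None of the 6 was at 0 counts, and the part of the other markers in the CDH5 value was not tested.

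Among 23 repressors of CDH1 and epithelial activators, 20 were tested in each line, with 3 up and 11 down in MI-spheres (median -0.14) and 3 up and 7 down in MII-spheres (-0.02). Of all genes, 28.7% were up and 27.4% down in MI-spheres and 29.9% and 27.6% in MII-spheres. TCF4, a basic helix-loop-helix repressor, rose in both (0.90 and 0.61), and KLF8 rose in MI-spheres (0.61). KLF4, an activator of CDH1, fell in both (-1.998 and -0.70), the epithelial factor ELF3 fell in MI-spheres (-1.05) and EHF rose in MII-spheres (0.21). SNAI1 fell in MII-spheres from 20.0 to 3.55 CPM (-2.53 ± 0.13), and, a value outside the naming rule, in MI-spheres too (-2.22). By RT-qPCR the paper reports the opposite direction, with SNAI1 among the genes that TGFβ raised in its spheres. The cause of this difference was not tested. SNAI2 rose in MI-spheres (0.92, adjusted p = 4.64e-06), and in MII-spheres it was at 2.05 against 1.54 CPM (0.40, adjusted p = 0.207). Of 26 genes of the β-catenin destruction complex and WNT targets, 5 rose and 6 fell among 22 in MI-spheres, and 7 rose and 8 fell among 21 in MII-spheres. DKK1, a secreted WNT antagonist, fell in both (-1.58 and -0.67) and CTNNBIP1, an inhibitor of β-catenin, rose in both (0.59 and 0.39). CCND1 fell in MI-spheres (-0.60) and rose in MII-spheres (0.36), with an interaction of 0.96 ± 0.06 (adjusted p = 3.3e-15). MYC rose in MI-spheres (0.47) and BCL9L fell in MII-spheres (-0.79). Of 17 non-keratin intermediate filament and linker genes, 5 rose and 2 fell among 7 in MI-spheres and 5 rose and 1 fell among 9 in MII-spheres. The lens filament gene BFSP1 (1.97) and the linker DST (0.53) rose in MI-spheres while PLEC (-0.41) fell. The lamins LMNB1 (2.34) and LMNB2 (1.010) rose in MII-spheres, and MACF1 fell in both (-0.24 and -0.20).

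Without TGFβ, the 2 sphere lines differed most in CDH19, CDH11 and CDH13. CDH19 had 17135 counts in MII Ctrl and 4 in MI Ctrl, all in replicate 2, a ratio per total count of 4813 with an exact 95% interval of 1879 to 17665 that covers counting error only. After TGFβ, 17202 counts faced 2 in MI-spheres, a ratio of 13819 (3825 to 114116). Against the WT libraries, at 0 counts, MII Ctrl was at least 6363-fold higher, taking 3 counts over the group as the floor. Among 17862 genes tested, CDH19 had rank 3 by rise and rank 11 by adjusted p (5.84e-57). CDH11 had 96 counts in MII Ctrl against 2 in MI Ctrl, a ratio of 53.9 (14.5 to 452). CDH13 went the other way, with 274 counts in MI Ctrl and 9 in MII Ctrl, a ratio of 27.1 (14.1 to 59.9). CDH2 was 2.79-fold higher in MII Ctrl, VIM 1.61-fold, CTNNB1 1.33-fold and CDH1 1.08-fold, and CDH3 was 1.57-fold lower. CTNND1 did not pass (0.07 ± 0.05, adjusted p = 0.243). In the same libraries the 10 basal markers summed to 2433 to 2503 CPM in MI Ctrl and 1115 to 1165 in MII Ctrl, and 8 luminal mammary markers to 1284 to 1323 and 2312 to 2372. Not all markers followed these sums. Among the 10 basal markers 3 were higher and 7 lower in MII Ctrl. Among 6 luminal markers tested 4 were higher and 2 lower. Of the luminal markers ANKRD30A was at 0 counts in MI Ctrl, and the part of either list in the CDH1 and CDH3 values was not tested. In all, 6 of the 9 genes described here were higher and 2 lower, beside 64.2% of all genes called (31.7% higher, 32.5% lower). The CDH1 call (0.11 ± 0.03, adjusted p = 0.00361) was lost without MII Ctrl replicate 1 (0.0697) without the low-count filter (0.0750) and in the joint fit (0.675), and the VIM call (0.69 ± 0.22, 0.00606) in DESeq2 (0.0601). With 10 counts required in every library, CDH11, CDH13 and CDH19 left the test and 5 genes were called.

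The neighbours of CDH19 were also examined. Of the 16 other protein-coding genes within 3 Mb, 10 had a mean of at least 1 CPM in a sphere group. The nearest cadherin, CDH7, was at 0.022 CPM in MII Ctrl. DSEL stood at 5.63 CPM in MII Ctrl and 3.00 in MI Ctrl, and TMX3 at 100.2 and 130.8. Several SERPINB genes of the same window were lower in MII Ctrl, such as SERPINB2 at 0.230 against 39.3 CPM and SERPINB13 at 2.17 against 24.9. SERPINB5 went the other way, at 447 CPM in MII Ctrl against 279 in MI Ctrl. This window was chosen after the CDH19 values were seen, and no test was run on it. Among markers of the neural crest and glia, MITF was above 1 CPM in MII Ctrl (39.8, against 16.0 in MI Ctrl). The 6 markers of this list summed to 38.8 to 42.7 CPM in MII Ctrl. They summed to 53.2 to 64.0 CPM in WT and 30.3 to 32.9 in SLUG KO, both with 0 counts of CDH19. In MII Ctrl the other markers named here were low. SOX10 (0.455 CPM), S100B and NGFR (0.0553 each) were near 0.

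Among the lists, 14 plaque and nectin genes were higher and 9 lower in MII Ctrl than MI Ctrl among 26 tested (median 0.19, against 0.02 for all genes, with 31.7% of all genes higher and 32.5% lower), including LIMA1 (1.59) and PTPRM (0.93) upward and LMO7 (-0.99) and NECTIN1 (-1.23) downward. Of 20 other cadherins 9 were higher, such as CDH26 (2.47) and PCDH9 (1.32), and 8 lower, such as FAT2 (-4.98, from 113 to 3.44 CPM) and CELSR2 (-0.87). Of 20 repressors and activators 9 were higher, with TCF4 (2.08) and KLF4 (1.103) first by adjusted p, and 8 lower, with GRHL3 (-2.89) and OVOL2 (-1.01) first, both grainyhead- or OVO-type epithelial factors. Among 22 destruction complex and WNT genes 7 were higher, with DKK1 (2.41) and TCF7 (1.86) first, and 11 lower, with MYC (-1.32) and CCND1 (-0.73) first. Of 9 filament genes, 6 were higher (DST 0.92, MACF1 0.81) and 2 lower (LMNB1 -1.58, LMNB2 -0.63).

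WT MDA-MB-231 cells and MI Ctrl spheres differ in line and in culture (2D against 3D), which cannot be told apart. Compared with MI Ctrl, CDH3 was 683-fold and CDH1 427-fold lower in WT, and VIM was 455-fold higher. CDH11 had 19700 counts against 2, a ratio of 9326 (95% interval 2581 to 77011), and CDH13 had 2 counts against 274, so that MI Ctrl was 145-fold higher (39.7 to 1201). CTNND1 was 2.45-fold lower (-1.29 ± 0.17, adjusted p = 0.000583). CDH2 (-0.40 ± 0.51, 0.540) and CTNNB1 (0.06 ± 0.23, 0.849) did not pass. In all, 2 were higher and 4 lower among 8 tested, beside 54.0% of all genes called (28.1% higher, 25.9% lower). Without WT replicate 2, CTNNB1 passed (0.23, adjusted p = 0.0122). Of 21 repressors and activators 4 were higher in WT, among them ZEB1 (94.5 against 1.22 CPM) and SNAI2 (28.3 against 4.32). The 16 that were lower include FOXA1 (0.0669 against 101.7 CPM) and the grainyhead factor GRHL2 (0.0782 against 127). All 10 filament genes tested were higher (median 2.86), with LMNB1 (2.77) and NES, at 59.0 CPM against 0 counts, first by adjusted p. NECTIN4 (0.0263 against 160.4 CPM) and LMO7 were lower and CTNNAL1 (455 against 7.80) and AJUBA higher, among 7 higher and 9 lower of 26 plaque genes and nectins. Of 20 other cadherins 5 were higher and 13 lower, with FAT4 (177 against 4.92 CPM) and CDH4, the R-cadherin (68.1 against 0.777), upward and CDH5 and PCDH7 downward. DKK1 (329 against 15.7 CPM) and SP5 were among 9 higher of 23 destruction complex and WNT genes, and APCDD1 and CSNK1A1 among 6 lower.

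The comparison of the libraries labelled SLUG KO with WT asks how these genes stand after cutting in SNAI2, which encodes a repressor of CDH1. SNAI2 mRNA itself goes against a loss of the transcript, as given above, whereas the protein was checked in the paper and not here. CDH11 fell 2.99-fold, from 260.3 ± 11.7 to 88.8 ± 10.3 CPM (-1.58 ± 0.17, adjusted p = 0.00458), with no overlap. It was the 1 gene called among 7 tested, beside 3.33% of all genes (1.45% higher, 1.89% lower). CDH1 was at 1.23, 0.959 and 2.13 CPM in SLUG KO, overlapping with WT (0.19 ± 0.42, adjusted p = 0.826). CDH2 (0.93 ± 0.52, 0.375), CDH3 (0.59 ± 0.50, 0.555), CTNNB1 (0.16 ± 0.23, 0.727), CTNND1 (-0.10 ± 0.18, 0.800) and VIM (-0.12 ± 0.22, 0.785) did not pass, and the standard errors leave room for sizeable differences. CDH13 and CDH19 had at most 1 and 0 counts. CDH1 to CDH2 per kb was 0.77 ± 0.65 in WT and -0.21 ± 0.54 in SLUG KO on the log2 scale, without overlap (exact permutation p = 0.1, two-sided, the smallest possible). Both genes had few counts here, from 9 to 62 in a library. The nearest libraries, WT replicate 3 and SLUG KO replicate 3, lay at 0.235 and 0.0988. The highest ratio was that of WT replicate 2, from 18 counts of CDH1 and 9 of CDH2. A shift in this ratio can therefore not be told apart from counting error.

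Without SLUG KO replicate 1 or 2 the CDH11 fold-change was -1.56 or -1.48 with adjusted p = 0.0610 and 0.0598. Without WT replicate 2, which stands apart, it was -1.60 (adjusted p = 5.59e-09), VIM also passed (-0.29, 0.0291), and 5592 instead of 581 genes were called over all genes. No gene of 24 plaque genes and nectins was called, with a median of -0.01, where 1.45% of all genes rose and 1.89% fell. PCDH7 (3.22 to 0.0265 CPM) and PCDH9 (6.61 to 0.350) were among 3 other cadherins of 16 that fell, against 0 that rose. LEF1 (2.65 to 0.229 CPM) and TCF7L2 (13.5 to 4.66), DNA-binding partners of β-catenin, fell among 21 destruction complex and WNT genes, where no other gene was called. GFAP (-1.44) and NES (-0.95) fell among 10 filament genes. Of 12 repressors and activators 3 rose, among them KLF8 (2.11) and SNAI2 itself.

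Transfection of siRNAs against SMAD2, SMAD3 and SMAD4 asks which of these genes depend on SMADs without added TGFβ. CTNND1 rose 1.27-fold, from 20.9 ± 0.884 to 26.5 ± 0.552 CPM (0.34 ± 0.07, adjusted p = 0.000172), CDH11 1.09-fold (0.13 ± 0.04, 0.00681) and CTNNB1 1.08-fold (0.10 ± 0.04, 0.0269). CDH1 fell 1.23-fold (-0.30 ± 0.08, 0.00236), from 18.8, 17.2 and 17.2 to 14.9, 14.0 and 14.4 CPM. Of 8 genes tested, 3 rose and 1 fell, beside 36.0% of all genes called (16.3% higher, 19.7% lower). VIM was at 1007 ± 49.5 and 980.1 ± 3.59 CPM (-0.04 ± 0.04, 0.408). CDH2 (0.43 ± 0.24, 0.169), CDH3 (0.25 ± 0.41, 0.682) and CDH13 (0.29 ± 0.55, 0.735) did not pass, and CDH19, with at most 7 counts in a library, was not tested. CTNND1 to CTNNB1 per kb was higher by 0.23 and CDH1 to CDH2 lower by 0.76 on the log2 scale, both without overlap (exact permutation p = 0.1, two-sided). Per the file headers, siSMAD2/3/4 replicates 1 and 2 were read on another flow cell than the other 4 siRNA libraries. With flow cell as a term 1 gene, CTNND1, was still called. The log2 fold-changes of CDH1 (-0.29), CDH11 (0.13) and CTNNB1 (0.11) were then about as large, but did not pass (adjusted p = 0.0606, 0.0588 and 0.108). CTNNB1 was also lost without Csi replicate 3 (0.111) or siSMAD2/3/4 replicate 1 (0.0675) or 2 (0.0509).

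Of 24 plaque genes and nectins, 7 rose with siSMAD2/3/4 and 8 fell, where 16.3% of all genes rose and 19.7% fell. With flow cell as a term 4362 instead of 6365 genes were called over all genes. By adjusted p, PLEKHA7 (0.73), a p120-catenin partner, and JUP (0.64), which encodes plakoglobin, came first among those that rose, and NECTIN1 (-0.51) and ZYX (-0.24) among those that fell. Among 18 other cadherins 6 rose (FAT4 0.39, CLSTN3 0.47) and 3 fell (CLSTN1 -0.20, CDH4 -0.29). Of 16 repressors and activators, 5 rose, including KLF4 (0.45) and ESRP2 (0.59), and 2 fell, ZEB2 (-0.57) and SNAI2 (-0.23). Among 23 destruction complex and WNT genes 7 rose (TCF7L2 0.33, BTRC 0.31) and 5 fell (CCND1 -0.39, LEF1 -0.75). Of 11 filament genes, 3 rose, with SYNM (0.32) and PLEC (0.21) first, and 3 fell, with LMNB1 (-0.70) and LMNB2 (-0.45) first. The medians of these 5 lists ran from 0.05 to 0.15, against 0.00 for all genes.

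The protein-coding genes whose log2 CPM was most like a member's over the 18 sphere, WT and SLUG KO libraries were sought among 12772 genes with a mean of at least 1 CPM. The points share their lines and conditions, so r can be high from differences between lines alone and need not reflect a shared response to TGFβ. For CDH1 they were H3C6 (r = 0.999), MYO5B (0.998) and SLPI (0.998), and for CDH3 PNLIPRP3, SERPINB3 (both 0.997) and SYK (0.996). With TGFβ in MI-spheres SERPINB3 went from 288 to 247 CPM while CDH3 went from 218 to 300, and PNLIPRP3 and SYK were higher. CDH2 was most like LPCAT2 (0.978), RCBTB1 (0.967) and S100A11 (0.967), and VIM most like NRP1 (0.997), TTL (0.996) and MID1 (0.993). For CDH19 and CDH11 the search was added after their values were seen. It gave NPY5R (0.996), CHST9 (0.995) and KLK5 (0.992) for CDH19, and NES (0.997), CRIM1 (0.987) and INSYN2B (0.985) for CDH11. With TGFβ in MII-spheres CDH19 went from 274 to 386 CPM and KLK5 from 259 to 346. NPY5R stood at 7.25 and 7.20 CPM there, and CHST9 at 9.90 and 8.13. KLK5, a secreted protease, was at 259 CPM in MII Ctrl and 0.0879 in MI Ctrl, and NES at 59.0 CPM in WT and 31.2 in SLUG KO.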

How the data were processed

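RNA-seq libraries were analysed, 24 in 8 groups of 3, and the 16 ATAC-seq samples of the series were not analysed here. The authors depleted ribosomal RNA, removed adapters and poor bases (Trimmomatic), mapped reads to GRCh38 in 2 passes (STAR) and counted fragments on GENCODE 38 exons with featureCounts 2.0.0. Pairs needed both ends mapped and a mapping quality of at least 30, and strand was ignored although the kit keeps it. The deposited values are raw counts per gene, without normalization. Depth (14124688 to 38406952 counts per library) sets the precision of low genes such as CDH2, CDH11 and CDH13 in spheres. Intervals cover counting error only.

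Counts were scaled with TMM and tested in R 4.3.3 with edgeR 4.0.16, using filterByExpr, the quasi-likelihood test and Benjamini-Hochberg adjustment over all genes tested. A gene was called at an adjusted p under 0.05. Each comparison used its own 6 libraries and the interaction 12. CPM for levels used TMM over 24 libraries. Log2 CPM had a prior count of 2. Tests were tried on simulated data. Alternatives were DESeq2 1.42.0, its size factors in edgeR, no filter, at least 10 counts in every library, a replicate block, the 18 libraries of 1 batch label fitted jointly, the flow cell as covariate in the siRNA comparison, leaving out each library and, chosen after seeing the data, library totals in place of TMM. Replicate numbers did not pair libraries (correlations of deviations from -0.123 to 0.0510). Named are all 9 genes, the targeted genes, from each list, by comparison and direction, the 2 called genes of lowest adjusted p, and the 3 genes most like each of CDH1, CDH2, CDH3 and VIM. Genes near CDH19 and some markers were named after their values were seen. The 9 genes and all lists were chosen with earlier results of these data known. Symbols covered 99.6% of genes. Some markers of the neural crest and glia are not reported here.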

Additional observations from a re-analysis of the deposited data

Results flagged for a closer look

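The change with TGFβ differed between the sphere lines for 2 of the 9 genes by the interaction test of edgeR. Of all genes, 22.4% were called in this test, a share close to 2 of 9. For CDH1 the difference, MII-spheres minus MI-spheres, was 0.35 on the log2 scale (adjusted p = 1.47e-05), from changes of -0.03 (MI-spheres) and 0.30 (MII-spheres). Over its 18 alternatives it ran from 0.30 to 0.38, with adjusted p of at most 0.00111. The joint fit of 18 libraries, in which CDH1 in MII-spheres did not pass (0.33, adjusted p = 0.201), was not run for the interaction. For CDH3 the difference was 0.58 (adjusted p = 1.19e-09), from 0.38 and 0.94, and its alternatives ran from 0.52 to 0.59. All 3 MII TGFβ libraries lay above all 3 MII Ctrl libraries for both genes.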

How the results depend on the processing

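The count of called genes among the 9 changed by more than 1.5 times in 3 comparisons with a changed setting and in 1 with a library left out. With at least 10 counts in every library it was 5 instead of 8 for MII Ctrl against MI Ctrl and 3 instead of 6 for WT against MI Ctrl, since fewer genes were then tested. With flow cell as a term it was 1 instead of 4 for siSMAD2/3/4 against Csi. Leaving out 1 library gave 0 to 2 instead of 1 for SLUG KO against WT. The replicate block left the counts at 6 (MI TGFβ), 8 (MII TGFβ), 8 (MII Ctrl against MI Ctrl), 2 (interaction), 1 (SLUG KO), 4 (siSMAD2/3/4) and 6 (WT against MI Ctrl), and replicate numbers gave no sign of pairing. Over single genes, 714 of 759 alternative values kept direction and side of the threshold, 17 lost the call, 9 gained one and 19 turned in sign, none of them called in either setting. CDH1 in MI-spheres turned to 0.0053 in DESeq2 and 0.044 in the 18-library fit. The other reversals came from leaving out 1 library. Over all single libraries left out, the values in the interaction ran from -2.06 to 2.01 for CDH19, -0.0060 to 0.13 for CTNND1, -1.20 to 0.52 for CDH11, -0.081 to 0.00022 for CTNNB1 and -1.39 to 0.056 for CDH13. For SLUG KO they ran from -0.18 to 0.42 for CDH1, -0.18 to 0.016 for CTNND1, -0.022 to 0.32 for CTNNB1 and -0.295 to 0.029 for VIM. For siSMAD2/3/4 they ran from -0.24 to 0.77 for CDH13 and -0.020 to 0.61 for CDH3, and for WT against MI Ctrl from -0.12 to 0.23 for CTNNB1. The cause was not tested. Depth limits CDH11, CDH13 and CDH19, which have few or no counts in some groups.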
